A study of Rattus norvegicus with 12 samples.

Results

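Proximal sodium, bicarbonate and ammonia handling was followed through 7 genes, Slc9a3, Slc4a4, Car4, Atp1b1, Fxyd2, Glud1 and Slc38a3, in rat kidney grafts that lacked the export pump MRP2 (Abcc2) and in grafts that had it. Every probe set whose platform annotation names a member and no other gene was taken, which gave 7 of 14217 genes and 11 of 31042 probe sets. Of these 10 passed the filter on level, and all 7 genes kept at least 1 probe set. The samples were renal cortex of male rats, 1 Affymetrix array for each of 12 kidney grafts, and all 12 recipients were wild type. The grafts were ABCC2-/- (MRP2-deficient) in 6 arrays, with replicate numbers 3, 5, 9, 10, 11 and 14, and wild type in 6 arrays, with replicate numbers 1, 4, 6, 7, 8 and 9. The strain, the age, the time after transplantation and any treatment are not given in the sources used here, and neither is the number of donor animals behind each genotype. Every p below therefore weighs differences against the array-to-array spread, which may be partly technical. The genotype is that of the graft, and cells that entered from the blood of a wild-type recipient would not carry it.

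The proximal tubule reclaims most filtered sodium and bicarbonate. Sodium/hydrogen exchange at the brush border secretes acid into the lumen, carbonic anhydrase at the cell surface turns the carbonic acid formed there into carbon dioxide and water, and bicarbonate leaves the cell across the basolateral membrane together with sodium. The gradient is kept by the sodium pump, and the same cells take up glutamine and release its nitrogen as ammonium, which carries acid into the urine. Several of these genes are not confined to the proximal tubule: Atp1b1 and Fxyd2 serve the sodium pump along much of the nephron, and Slc9a3 and Car4 are also found in the thick ascending limb. The arrays measured bulk cortex, in which fewer cells of a type and less RNA per cell cannot be told apart. Of 12 proximal tubule markers, 11 had a probe set naming that gene alone, and 10 passed the level filter. Among these were the endocytic receptor gene Lrp2, the phosphate transporter gene Slc34a1 and the inositol oxygenase gene Miox, so the tissue carried markers of the segment.

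Abcc2 itself had signals of 0.0387 to 0.213 in ABCC2-/- grafts, against 0.787 to 0.987 in wild-type grafts. Across 18625 tested probe sets 4 passed an adjusted p of 0.05 between genotypes, by limma with Benjamini-Hochberg adjustment. A larger divide ran across both genotypes, by order of listing. The last 3 listed arrays of each genotype (ABCC2-/- 3, 10 and 14, wild-type 4, 7 and 8) differed from the first 3 listed (ABCC2-/- 5, 9 and 11, wild-type 1, 6 and 9) in 5640 probe sets in a fit with genotype and this listing group as terms. The labels do not say what the order of listing stands for. A constant per array that puts its values on steps of 0.1 was inferred from the values themselves. It was 104 to 139 in the last-listed and 135 to 197 in the first-listed arrays. The ratio of the 3′ to the 5′ control probe set of Gapdh, a measure of RNA and labelling quality, was 1.28 to 1.36 in last-listed and 1.66 to 1.93 in first-listed ABCC2-/- grafts. In wild-type grafts it was 1.64 to 1.88 in last-listed and 1.75 to 1.83 in first-listed arrays. The same ratio for the Actb control was higher, at 4.48 to 6.39 in last-listed and 8.56 to 9.57 in first-listed ABCC2-/- grafts. In wild-type grafts the Actb ratio ran the other way, at 8.39 to 9.79 in last-listed and 7.06 to 8.10 in first-listed arrays. Genotype values are therefore given over all 12 arrays and within each listing group, which holds 3 grafts of each genotype.

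None of the 7 genes passed the test between ABCC2-/- and wild-type grafts. In the limma fit across the whole table, 0 of the 10 tested member probe sets had an adjusted p under 0.05, against a background of 0.0215%. At an unadjusted p under 0.05 in this fit, which has no term for listing group, the count was also 0, against a background of 7.98%. The log2 differences lay between -0.25 (Slc9a3) and 0.17 (Fxyd2), with adjusted p between 0.628 and 0.992. Of the 7 genes, each represented by its brightest probe set, 3 had a positive and 4 a negative difference. Their median was -0.0070, and that of all 10639 genes with a tested probe set was -0.041. The 2 genotypes overlapped in all 11 probe sets, and 0.435% of all tested probe sets did not overlap. A p that misses the threshold does not show equal levels, and the intervals given with each gene are those of the fit without listing group. With listing group as a block the differences stayed the same and the intervals narrowed. They excluded 0 for Slc9a3 (-0.42 to -0.089), Fxyd2 (0.047 to 0.30) and the brighter Glud1 probe set (-0.26 to -0.040). The limma adjusted p of these was 0.111, 0.140 and 0.142, and the other intervals included 0. How many of all probe sets had such intervals was not counted.

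**Figure D1:**
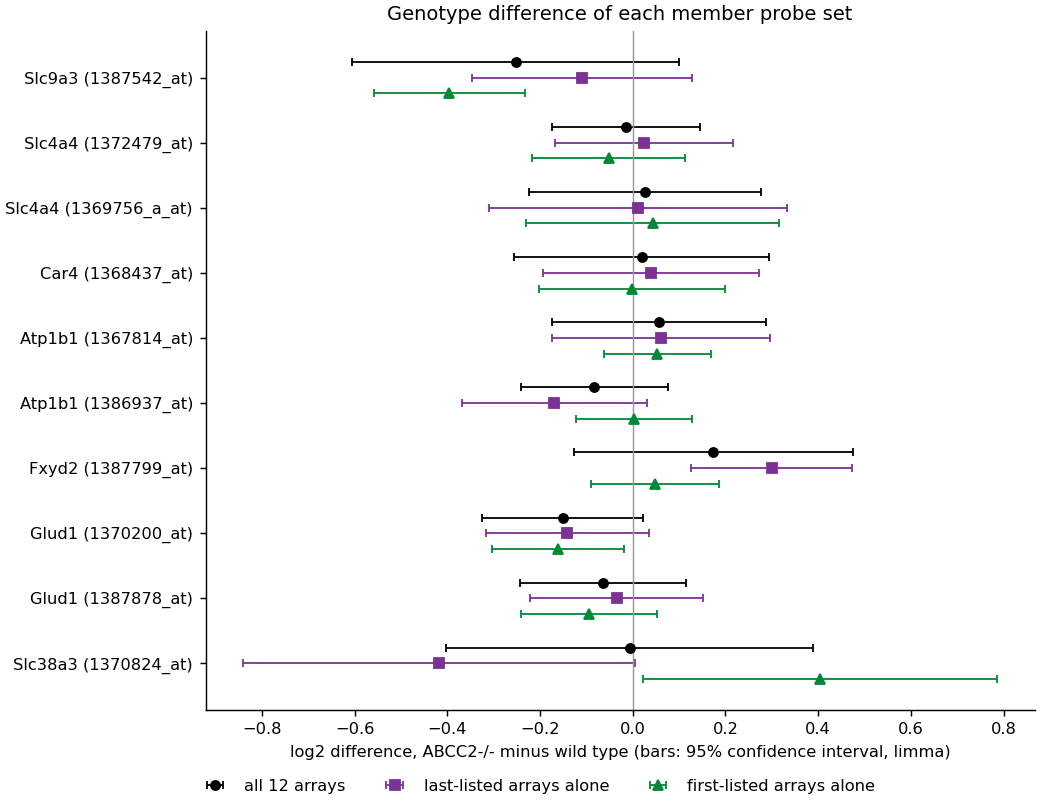
Log2 difference (ABCC2-/- minus wild type, horizontal axis) of the 10 tested member probe sets with 95% confidence intervals from limma, over all 12 arrays (black circles), in the 6 last-listed arrays (purple squares) and in the 6 first-listed arrays (green triangles). Every black interval includes 0. The widest belongs to Slc38a3, whose values within the listing groups have opposite signs.

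Slc9a3 encodes NHE3, the sodium/hydrogen exchanger of the brush border. Its 1 probe set had signals of 3.57, 4.53 and 5.45 (lowest, median and highest of 6) in ABCC2-/- grafts, against 3.62, 5.54 and 7.19 in wild-type grafts. All 6 ABCC2-/- arrays lay below the wild-type median, yet the ranges overlapped, with last-listed wild-type arrays as low. The log2 difference was -0.25 (SE 0.17, 95% confidence interval -0.60 to 0.099, limma adjusted p = 0.639). In the first-listed arrays the signals were 4.87 to 5.45 in ABCC2-/- grafts and 6.51 to 7.19 in wild-type grafts. How many of all probe sets part 3 against 3 arrays in this way was not counted. The log2 difference in these arrays was -0.40 (SE 0.07, limma adjusted p = 0.126, where 0.0215% of all probe sets passed). In the last-listed arrays the genotypes overlapped, with 3.57 to 4.19 in ABCC2-/- grafts and 3.62 to 4.58 in wild-type grafts. The log2 difference there was -0.11 (SE 0.11, limma adjusted p = 0.574). The difference between these 2 values was 0.29 (SE 0.13), and as an interaction term it did not pass (limma adjusted p = 0.274, where 2.54% of all probe sets passed). With listing group as a block the genotype difference had a limma adjusted p of 0.111, where 0.601% of all probe sets passed. The mean of Slc9a3 was thus below that of wild-type grafts in both listing groups, and no fit called it.

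Slc4a4 encodes NBCe1, the sodium bicarbonate cotransporter of the basolateral membrane, and was among the steadiest genes of the group. The brighter of its probe sets had signals of 32.5, 36.2 and 39.9 in ABCC2-/- grafts, against 32.1, 36.8 and 39.2 in wild-type grafts. These ranges are nearly the same, and the highest array was 1.24 times the lowest. The log2 difference was -0.014 (SE 0.08, 95% confidence interval -0.17 to 0.15, limma adjusted p = 0.956). The dimmer probe set spread more widely, with 6.48, 8.36 and 10.0 in ABCC2-/- grafts and 6.11, 7.86 and 9.36 in wild-type grafts, and a log2 difference of 0.027 (95% confidence interval -0.22 to 0.28). Both probe sets had their lowest wild-type value in replicate 8.

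Car4 encodes carbonic anhydrase IV, the enzyme anchored to the outer face of the membrane. Its brighter probe set had signals of 5.05, 6.24 and 7.77 in ABCC2-/- grafts, against 4.86, 6.08 and 8.11 in wild-type grafts. The genotypes spanned the same range, and the log2 difference was 0.019 (SE 0.13, 95% confidence interval -0.26 to 0.29, limma adjusted p = 0.967). The other Car4 probe set was too dim to be tested: in 9 of 12 arrays it lay below the floor set on low values, and its signals were 0.0146 to 0.153 in ABCC2-/- grafts and 0.01 to 0.158 in wild-type grafts.

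Atp1b1 encodes the beta 1 subunit of the sodium pump, which the pump needs to reach the membrane. Its brighter probe set had signals of 51.6, 60.3 and 69.1 in ABCC2-/- grafts, against 51.0, 55.5 and 77.7 in wild-type grafts. The highest value, in wild-type replicate 4, stood well above the other wild-type arrays, which reached 58.2. The log2 difference was 0.057 (SE 0.11, 95% confidence interval -0.17 to 0.29, limma adjusted p = 0.855). The other probe set had signals of 39.3, 41.6 and 46.2 in ABCC2-/- grafts, against 40.6, 44.0 and 51.6 in wild-type grafts. Here too wild-type replicate 4 was highest, and the log2 difference was -0.083 (95% confidence interval -0.24 to 0.075, limma adjusted p = 0.706). The signs of the 2 probe sets differ while both intervals include 0.

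Fxyd2 encodes the gamma subunit of the sodium pump, a small regulator that sets the pump's affinity for ions in kidney. Its 1 probe set had signals of 35.9, 47.2 and 59.7 in ABCC2-/- grafts, against 35.1, 41.5 and 50.3 in wild-type grafts. The upper part of the range, above 50.3, held ABCC2-/- arrays alone, and these were the 3 last-listed ones. The log2 difference was 0.17 (SE 0.14, 95% confidence interval -0.13 to 0.47, limma adjusted p = 0.684). In the last-listed arrays Fxyd2 was higher in ABCC2-/- grafts, with 54.3 to 59.7, than in wild-type grafts, with 44.5 to 50.3 (log2 difference 0.30, SE 0.08, limma adjusted p = 0.0461, where 6.39% of all probe sets passed). In these arrays the Gapdh control ratio also separated the genotypes, and its part in the result was not tested in this listing group alone. In the first-listed arrays the log2 difference was 0.048 (SE 0.06, limma adjusted p = 0.808). The difference between the listing groups, 0.25 (SE 0.10), did not pass (limma adjusted p = 0.193). With the Gapdh ratio as a covariate over all 12 arrays the genotype difference was -0.046, and with both the ratio and the listing group it was 0.12 (SE 0.07, limma adjusted p = 0.597).

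Glud1 encodes mitochondrial glutamate dehydrogenase, which releases ammonium from glutamate. Its brighter probe set had signals of 18.9, 22.3 and 23.9 in ABCC2-/- grafts, against 22.0, 23.99 and 28.1 in wild-type grafts. All 6 ABCC2-/- arrays lay below the wild-type median, and the ranges overlapped between 22.0 and 23.9. The log2 difference was -0.15 (SE 0.08, 95% confidence interval -0.32 to 0.022, limma adjusted p = 0.628). It was nearly the same within the last-listed arrays, -0.14 (limma adjusted p = 0.303), and within the first-listed arrays, -0.16 (0.373). The last-listed signals were 18.9 to 22.1 in ABCC2-/- and 22.0 to 23.3 in wild-type grafts. The first-listed ones were 22.5 to 23.9 and 24.7 to 28.1. The other probe set had signals of 18.4, 22.1 and 23.5 in ABCC2-/- grafts, against 20.3, 22.0 and 26.3 in wild-type grafts, and a log2 difference of -0.064 (SE 0.08, limma adjusted p = 0.784). In this second probe set 4 of the 6 ABCC2-/- arrays lay above the wild-type median.

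Slc38a3 encodes SNAT3, the basolateral glutamine transporter that supplies ammonia production. It varied most among the members, with signals of 2.78, 4.01 and 6.43 in ABCC2-/- grafts, against 3.23, 3.68 and 6.08 in wild-type grafts. One graft of each genotype stood high, ABCC2-/- replicate 9 at 6.43 and wild-type replicate 8 at 6.08, while the others reached 4.59. The highest array was 2.31 times the lowest. The log2 difference was -0.0070 (SE 0.19, 95% confidence interval -0.40 to 0.39, limma adjusted p = 0.992). The high arrays fell in opposite listing groups, and the genotype difference was -0.42 (SE 0.19) in the last-listed and 0.40 (SE 0.17) in the first-listed arrays. The difference between these values, -0.82 (SE 0.30), had the lowest adjusted p of the interaction terms of the members, 0.158 by limma, and did not pass. Marker lists gave mixed values in the high arrays. The thick ascending limb list (5 of 5 markers tested) had its highest mean log2 deviations in ABCC2-/- replicate 9 (0.23) and wild-type replicate 8 (0.17). The principal cell list of the collecting duct was lowest in wild-type replicate 8 (-0.36), and had -0.040 in ABCC2-/- replicate 9. In ABCC2-/- replicate 9 the leukocyte, tubular injury and distal convoluted tubule lists had -0.33, -0.29 and -0.28. In wild-type replicate 8 they had 0.030, -0.16 and -0.14. The proximal tubule list had -0.075 in ABCC2-/- replicate 9, its lowest value, and -0.036 in wild-type replicate 8. The intercalated, podocyte and endothelium lists were also below 0 in both, at -0.12, -0.20 and -0.10 in ABCC2-/- replicate 9. In wild-type replicate 8 these had -0.14, -0.13 and -0.023. The erythrocyte list had 0.033 in ABCC2-/- replicate 9 and -0.27 in wild-type replicate 8. The summed signal of the thick ascending limb markers was 64.9 to 82.7 in ABCC2-/- grafts and 66.9 to 86.8 in wild-type grafts. The part of cell composition in the Slc38a3 signal was not tested.

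**Figure D2:**
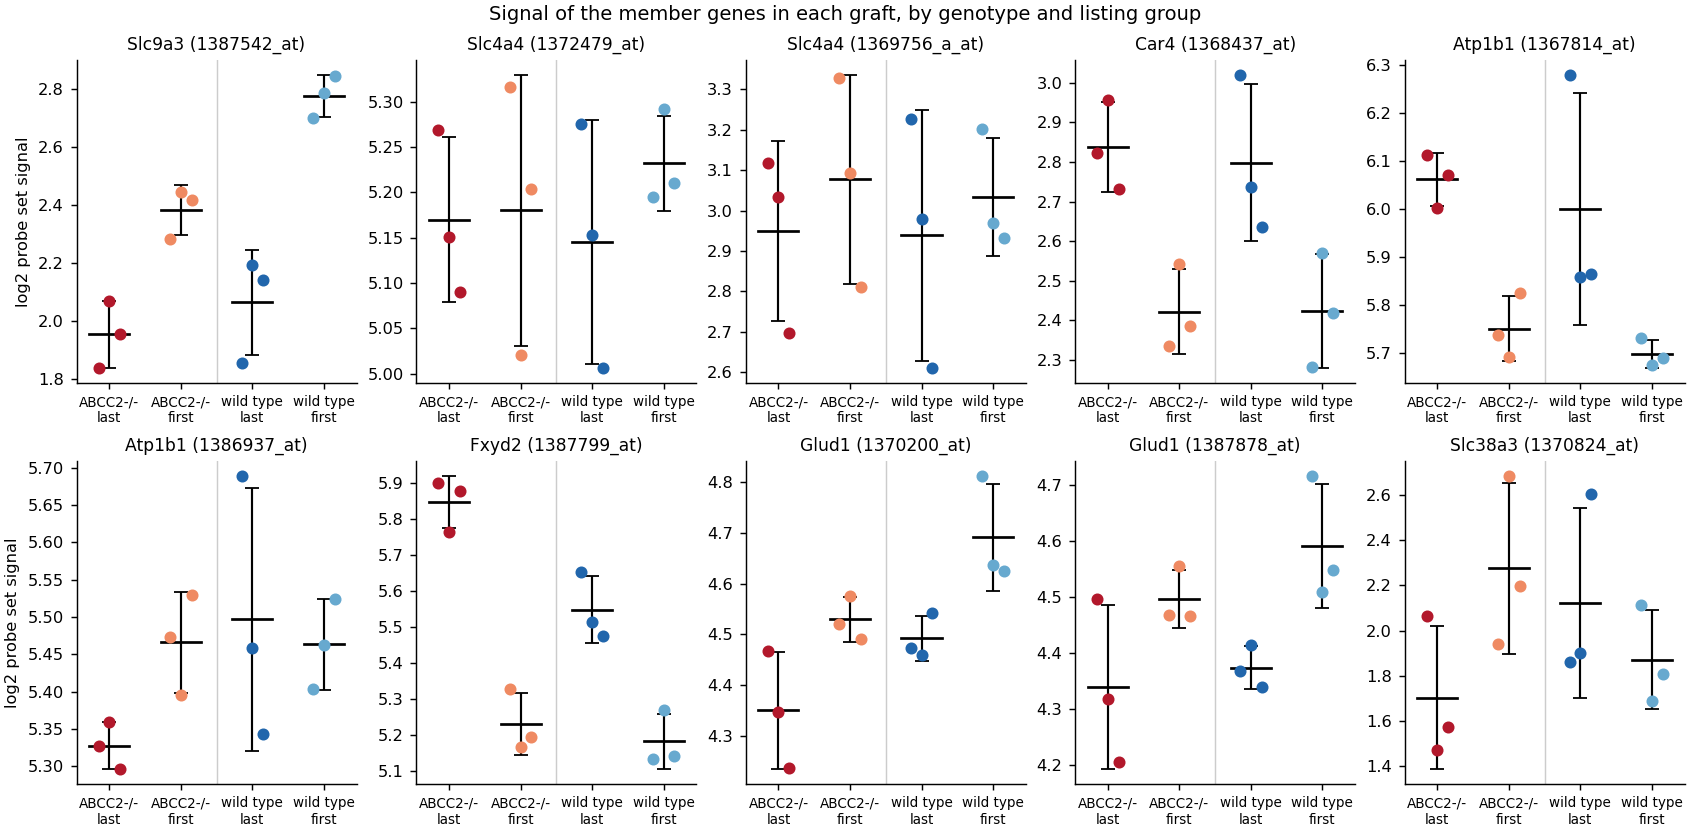
Log2 probe set signal of the 10 tested member probe sets (vertical axes, each with its own range that does not start at 0) in every array, by genotype and listing group, with the mean and SD of the 3 arrays in each column. Slc9a3 and Fxyd2 differ between listing groups in opposite directions in both genotypes, and the Slc4a4 columns overlap.

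The clearest pattern among the members followed the listing group. In the fit with genotype and listing group, 5 of 7 genes (71.4%) passed an adjusted p of 0.05, where 33.5% of all genes did. By probe set 6 of 10 passed, where 30.3% of all tested probe sets did, 11.3% higher and 19% lower in last-listed arrays. Fxyd2, Car4 and Atp1b1 were higher and Slc9a3 and Glud1 lower in the last-listed arrays. For Slc9a3 the signal averaged 4.04 ± 0.417 (SD, n = 6) in last-listed and 6.05 ± 0.947 (SD, n = 6) in first-listed arrays, with a log2 difference of -0.57 (SE 0.08, limma adjusted p = 7.94e-05). The brush border exchanger thus separated the listing groups completely, since the last-listed arrays reached 4.58 and the first-listed ones began at 4.87. For Fxyd2 the signal averaged 52.2 ± 6.47 (SD, n = 6) in last-listed and 36.9 ± 2.02 (SD, n = 6) in first-listed arrays, with a log2 difference of 0.49 (SE 0.06, limma adjusted p = 4.29e-05). For Car4 it averaged 7.08 ± 0.727 (SD, n = 6) in last-listed and 5.38 ± 0.426 (SD, n = 6) in first-listed arrays (log2 difference 0.40, SE 0.08, limma adjusted p = 0.00100). Slc9a3, Fxyd2, the brighter Car4 and the brighter Atp1b1 probe set, 4 of the 10 tested, did not overlap between listing groups, which held for 12.1% of all tested probe sets.

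These shifts appeared within each genotype. Among ABCC2-/- grafts alone the log2 difference between listing groups was -0.43 for Slc9a3, 0.62 for Fxyd2 and 0.42 for Car4, and among wild-type grafts alone -0.71, 0.37 and 0.38, each with a limma adjusted p between 2.21e-04 and 0.0364. Of all probe sets 22.9% passed among ABCC2-/- grafts alone and 16.1% among wild-type grafts alone. These 3 genes passed under each of the 17 alternatives tried. The size for Fxyd2 still moved with the scaling, from 0.49 as deposited to 0.57 after median centring and 0.24 with quantile normalization. The Gapdh control ratio moved with the listing group in ABCC2-/- grafts, and with this ratio as a further covariate the log2 differences were -0.76 for Slc9a3, 0.42 for Fxyd2 and 0.38 for Car4, where 16.2% of all probe sets passed. Slc4a4 showed no difference that passed in either probe set (-0.049 and -0.11), although with quantile normalization the brighter one passed at -0.26 (limma adjusted p = 8.51e-04). For Slc38a3 the difference was -0.16 (SE 0.18, limma adjusted p = 0.541).

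Whether Atp1b1 and Glud1 passed depended on the probe set or the scaling. The brighter Atp1b1 probe set averaged 65.7 ± 7.42 (SD, n = 6) in last-listed and 52.9 ± 2.05 (SD, n = 6) in first-listed arrays (log2 difference 0.31, SE 0.07, limma adjusted p = 0.00222), whereas the other averaged 42.8 ± 4.60 (SD, n = 6) and 44.2 ± 1.75 (SD, n = 6), a log2 difference of -0.052 (SE 0.06, limma adjusted p = 0.551). Within each array the log2 signal of the first minus that of the second was 0.40 to 0.78 in last-listed and 0.16 to 0.33 in first-listed arrays. The ranges do not overlap, so the 2 probe sets of the same gene moved unequally between listing groups. This pair was compared after its values were seen, and no test is given. With quantile normalization, which forces all arrays to one distribution, the brighter set had -0.0086 (limma adjusted p = 0.879) and the other -0.30, where 26.6% of all probe sets passed. Glud1 was lower in last-listed arrays by both probe sets, at -0.19 each (limma adjusted p = 0.0125 and 0.0205). Without the common shift of the arrays, after median centring, they had -0.11 each (limma adjusted p = 0.114 and 0.148, where 28.2% of all probe sets passed). With quantile normalization they had -0.27 each (limma adjusted p = 3.90e-04 and 7.42e-04). The brighter set did not pass with the Gapdh ratio as a covariate (limma adjusted p = 0.0516), among ABCC2-/- grafts alone (0.106) or among wild-type grafts alone (0.0793).

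**Figure D3:**
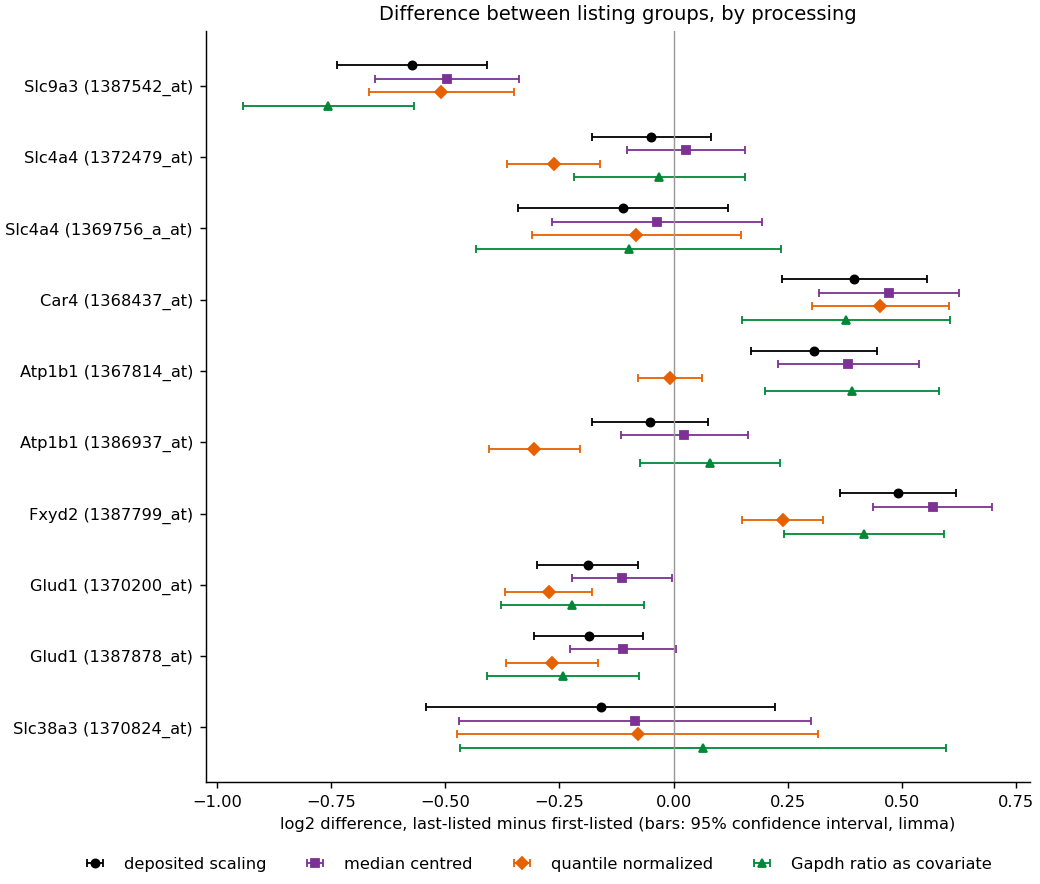
Log2 difference between listing groups (last-listed minus first-listed, horizontal axis) of the 10 tested member probe sets with 95% confidence intervals from limma, with the deposited scaling, after median centring, after quantile normalization and with the Gapdh control ratio as a covariate. Slc9a3 lies below 0 and Fxyd2 and Car4 above 0 in all 4 settings, and the brighter Atp1b1 probe set moves to -0.0086 with quantile normalization.

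Around the members, 3 lists covered acid-base transport, the sodium pump and its FXYD regulators, and glutamine uptake with ammonia production. Of 47 tested genes on these lists, 0 passed an adjusted p of 0.05 between genotypes by limma and 8 had an unadjusted p under 0.05, where 7.64% of all genes did. The genotypes overlapped in each of the 60 tested probe sets of these lists, where 0.435% of all tested probe sets did not overlap. Of all genes 4401 had a positive and 6238 a negative difference. In the acid-base list 5 of 16 genes had a positive and 11 a negative difference (median -0.039). The chloride/oxalate and bicarbonate exchanger gene Slc26a6 had a log2 difference of -0.67 (SE 0.25), with 0.312 ± 0.128 (SD, n = 6) in ABCC2-/- grafts and 0.480 ± 0.132 (SD, n = 6) in wild-type grafts. The anion exchanger gene Slc4a2 had -0.33 (SE 0.13), and both had a limma adjusted p of 0.606. The scaffold gene Nherf1, named after its values were seen, whose product tethers NHE3 at the brush border, had -0.18 in its brighter probe set and 1.01 in a dim one, so no direction can be given.

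In the sodium pump list 6 of 9 genes had a positive and 3 a negative difference (median 0.17). Among the FXYD regulator genes Fxyd1 had 0.37 (SE 0.14, limma adjusted p = 0.606), Fxyd4 0.25 (SE 0.16, limma adjusted p = 0.638) and Fxyd2 0.17. In the glutamine and ammonia list 4 of 22 genes had a positive and 18 a negative difference (median -0.10). The mitochondrial dicarboxylate carrier gene Slc25a10 had -0.36 (SE 0.12), with 10.3 ± 1.95 (SD, n = 6) in ABCC2-/- grafts and 13.04 ± 1.17 (SD, n = 6) in wild-type grafts, and the basolateral amino acid transporter gene Slc7a8 had -0.32 (SE 0.12), both with a limma adjusted p of 0.606. The glutamine synthetase gene Glul, named after its values were seen, had log2 differences of 0.0086, -0.16 and 0.43 in 3 probe sets, the last with 9.87 ± 1.93 (SD, n = 6) in ABCC2-/- grafts and 7.21 ± 0.579 (SD, n = 6) in wild-type grafts (limma adjusted p = 0.606). Pck1, the gluconeogenic enzyme that rises with ammonia production in acidosis, had 0.099 (SE 0.10).

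Between listing groups the lists were counted without the members, against 10.5% of all genes higher and 23% lower in last-listed arrays. In the acid-base list 0 of 13 other genes were higher and 4 lower. In the pump list 1 of 7 other genes was higher and 1 lower, and in the glutamine list 2 of 20 other genes were higher and 5 lower. Of these, the amino acid transporter genes Slc38a2 and Slc3a2 were lower (log2 differences -0.51 and -0.44), as was the glucocorticoid receptor gene Nr3c1 (-0.33). The FXYD regulator gene Fxyd5 (0.48) and Pck1 (0.28) were higher, with limma adjusted p for these 5 genes between 2.85e-04 and 0.00497. They were named after their values were seen.

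**Figure D4:**
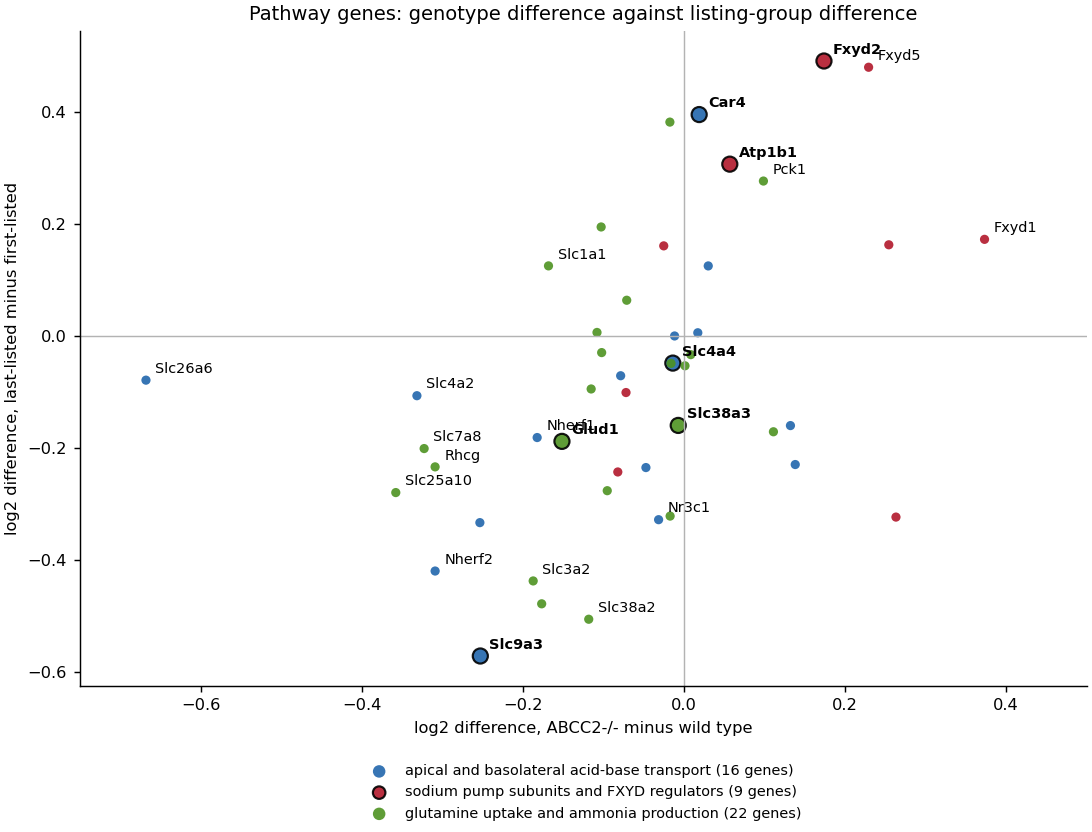
Log2 difference between genotypes (ABCC2-/- minus wild type, horizontal axis) against log2 difference between listing groups (last-listed minus first-listed, vertical axis) for the 47 tested genes of the 3 lists, 1 point per gene, with members as large outlined points. Among the members Fxyd2 and Car4 lie highest, at 0.49 and 0.40, with Fxyd5 between them at 0.48, and Slc9a3 lies lowest at -0.57, while every member lies between -0.25 and 0.17 on the horizontal axis.

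Cell type markers gave the setting of these values. Of 10 tested proximal tubule markers 0 passed between genotypes, and between listing groups 3 were higher and 2 lower in last-listed arrays, where 10.5% of all genes were higher and 23% lower. Genes of the same segment thus moved in both directions. Higher were Slc34a1 (0.27), the organic anion transporter gene Slc22a6 (0.17) and Miox (0.39), and lower were the glucose transporter gene Slc5a2 (-0.25) and the endocytic receptor gene Cubn (-0.31). The summed signal of the proximal list, in which bright genes weigh most, was 390 to 486 in last-listed and 369 to 395 in first-listed arrays. Its highest value was in wild-type replicate 4, the array that was also highest for Atp1b1 and Car4. With genes weighed equally, the mean log2 deviation was -0.040 in last-listed and -0.028 in first-listed ABCC2-/- grafts. In wild-type grafts it was 0.086 and -0.019, with 0.26 in replicate 4. Without wild-type replicate 4 the log2 difference between listing groups was 0.25 for Atp1b1 and 0.35 for Car4, and both still passed. Leukocyte markers moved with the listing groups as well: 3 of 6 tested, Cd68, Cd74 and Lyz2, were higher in last-listed arrays, and the summed signal was 70.3 to 91.7 in last-listed and 54.2 to 65.7 in first-listed arrays. The T cell markers Cd3e and Cd3d and the pan-leukocyte marker Ptprc did not pass, and Cd8a and Itgam lay below the level filter. The part of other cell types in the member values was not tested.

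**Figure D5:**
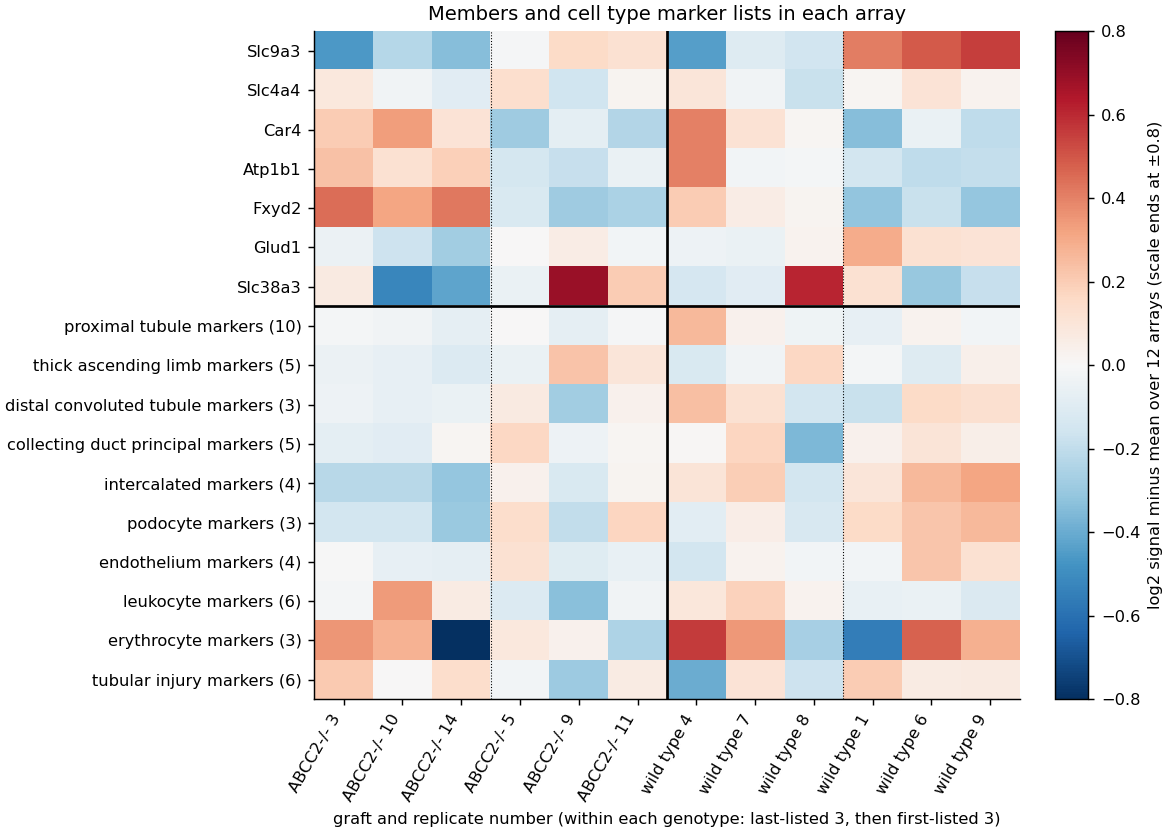
Log2 signal of each member gene and mean log2 signal of each marker list, minus its mean over the 12 arrays, as colour (red higher, blue lower), with 1 column per graft and ABCC2-/- grafts left of wild-type grafts. Slc38a3 is highest in ABCC2-/- replicate 9 and wild-type replicate 8, and Slc9a3 runs opposite to Fxyd2.

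Genes whose log2 signal ran most like that of a member over the 12 arrays are given as a description, since all points share the same arrays, genotypes and listing groups. Slc9a3 ran most like Ogt (r = 0.99), which encodes the transferase that adds N-acetylglucosamine to proteins, and Pdpk1 (r = 0.98), which encodes the kinase that activates AKT and SGK1. Fxyd2 ran most like Dnajc19 and Nme2 (r = 0.99 each), and Atp1b1 like the ATP synthase subunit gene Atp5f1e and Pck1 (r = 0.97 each). For Car4 the nearest were the fatty acid oxidation gene Eci1 (r = 0.96) and the metallothionein gene Mt2A (r = 0.95), and for Glud1 Myo7a (r = 0.97) and Actr1a (r = 0.96). Slc38a3 ran most like the organic anion transporter gene Slc22a7 (r = 0.93) and Phf19 (r = 0.92), and Slc4a4 like C7h8orf33 (r = 0.91) and the xanthine dehydrogenase gene Xdh (r = 0.89). With the means of each genotype and listing group removed, the r of these 14 pairs lay between 0.72 (Fxyd2 and Dnajc19) and 0.98 (Atp1b1 and Atp5f1e). Because the pairs were picked for a high r over these same arrays, a high value here is partly built in. The r of other pairs was not set beside it, and no conclusion is drawn.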

How the data were processed

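Total RNA of renal cortex was labelled with the one-cycle kit for Affymetrix 3′ arrays, per the labels' protocols. The deposited intensity values are probe set signals on a linear scale. The submitters' processing notes name MAS5 and GCOS, without versions. Within an array 99.8% to 99.9% of the deposited values above the minimum, times a constant of 104 to 197, fell on steps of 0.1 (tolerance 0.01 of a step). Of the deposited values 3.56% stood at the minimum of 0.01, which hides differences between dim probe sets.

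Here 57 control probe sets were left out, values under the pooled 20th percentile (0.0694) were raised to it, which understates folds of dim genes, and log2 was taken. Probe sets with a mean at or above the 40th percentile were tested, 18625 of 31042. Differences were fitted with limma 3.58.1 under R 4.3.3 (eBayes with trend), with genotype as the sole factor and no further normalization, with a threshold at an adjusted p of 0.05. The genotype fit was run on simulated arrays with independent normal noise and changes between genotypes in some probe sets. Those arrays had no listing-group effect, so the simulation does not show how the fit behaves with one. The platform annotation gave 20826 probe sets 1 symbol, 436 several and 9780 none, and the gene of 20758 probe sets was found in GRCr8 by Entrez ID and carries its symbol there. The members and lists were chosen with earlier results of these data known. The lists' genes named were the 2 of lowest p per list, and the 2 most alike per member by Pearson r. Listing groups follow the order in which the samples are listed, 3 and 3 per genotype. Alternatives changed the floor, filter, scaling, variance model, weights, covariates and arrays, and the comparison of listing groups was added after seeing the data. No probe sequence or genome position was used here.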

Additional observations from a re-analysis of the deposited data

Results flagged for a closer look

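In wild-type grafts the brighter Atp1b1 probe set was highest in replicate 4, at 77.7 against 51.0 to 58.2 in the other 5 arrays. In log2 signal this gap was 0.687 of the group's range. The dim Car4 probe set, which was not tested between genotypes, was also highest in wild-type replicate 4, at 0.158 against 0.01 to 0.0598, and after the floor on low values its gap was 1 of the range, because the other 5 arrays lay at the floor. In all 22 groups of a probe set and a genotype were examined, and 2 had a gap above 0.625 of the range. That cut is one that chance passes in about 1 of 20 groups. The rate does not apply to the dim Car4 set, whose gap was fixed by the floor.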

How the results depend on the processing

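Over 25 alternatives, 0 member genes passed between genotypes except that 1, Fxyd2, passed in the last-listed arrays alone (0.30). Probe sets that passed numbered 4 with all 12 arrays, 2 with the filter at the 60th percentile, 112 with listing group as a block, 1190 in the last-listed arrays alone and 3 to 5 with 1 array left out. Slc9a3 and both Glud1 probe sets stayed below 0 in all 25. None of the genotype values that turned sign had passed. Slc4a4 turned to 0.015 after median centring, 0.012 with the Gapdh ratio and 0.025 in the last-listed arrays. Car4 turned to -0.14 with the Gapdh ratio and -9.6e-04 in the first-listed arrays. The brighter Atp1b1 set turned to -0.054 after quantile normalization and -0.031 with the ratio, and the other to 0.019 with listing group and ratio and 0.0026 in the first-listed arrays. Fxyd2 turned to -0.046 with the ratio. Slc38a3 turned to 0.022 after median centring, 0.052 after quantile normalization, 0.064 with array weights, 0.14 with the ratio, 0.17 with listing group and ratio and 0.40 in the first-listed arrays. With 1 array left out Slc4a4 lay between -0.050 and 0.017 (other set -0.048 and 0.090), Car4 between -0.047 and 0.10 and Slc38a3 between -0.15 and 0.11. The cause of these turns was not tested.

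Between listing groups 5 member genes passed, 3 in wild-type grafts alone, and 5 with each array left out. Slc4a4 turned to 0.027 after median centring and passed at -0.26 after quantile normalization. The brighter Atp1b1 set turned to -0.0086 after quantile normalization, and the other to 0.023 after median centring, 0.080 with the ratio and 0.034 in wild-type grafts. Slc38a3 turned to 0.064 with the ratio and 0.25 in wild-type grafts. No paired analysis was possible because the genotypes share 1 replicate number only. Signals near the floor limit Car4's second probe set.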
